A study of Mus musculus with 5 samples.

Results

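PU.1 binding was followed site by site around 8 receptor genes: the CC chemokine receptor genes Ccr1, Ccr2, Ccr3, Ccr6, Ccr7 and Ccr9, the chemerin-binding relative Ccrl2, and Cx3cr1, the receptor gene for the chemokine fractalkine. PU.1, the ETS-family factor encoded by Spi1, had been mapped by chromatin immunoprecipitation and sequencing (ChIP-seq) in mouse dendritic cells grown in culture with Flt3L, the strain being given as C56BL/6. Plasmacytoid dendritic cells (pDCs) and conventional dendritic cells (cDCs) had 2 biological replicates each, and chromatin of cDCs that was not precipitated gave 1 input library. The labels name no further treatment or genotype, and neither the separation of the cell types nor any pooling of cultures is described in the sources used here. A locus was the gene span plus 20 kb on each side, in mm10. Reads had been counted in windows of 10 bp placed every 50 bp, and a site was a run of tested windows with gaps of at most 100 bp. The 8 loci, of 16240 with tested windows, held 57 of the 60527 sites of the genome. No site lay in more than 1 of the 8 loci. Many of their tested windows also lie in the loci of other genes. These were 35 of 47 windows at Ccr1, 24 of 31 at Ccr2, 30 of 42 at Ccrl2 and 11 of 16 at Ccr9. At Ccr3 they were 5 of 17, at Cx3cr1 9 of 41, and at Ccr6 and Ccr7 0. Signal in shared windows cannot be assigned to 1 gene.

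Chemokine receptors are G protein-coupled receptors that steer leukocytes along gradients of chemokines. Ccr1, Ccr2 and Ccr3 bind inflammatory chemokines, whereas Ccr6, Ccr7 and Ccr9 are known for homing: Ccr6 binds CCL20, Ccr7 guides dendritic cells to lymph nodes along CCL19 and CCL21, and Ccr9 binds CCL25 and is found on mouse pDCs. Ccrl2 binds chemerin without the classical signalling of a chemokine receptor. PU.1 recognises purine-rich sites with a GGAA core and binds many enhancers and promoters of myeloid cells and B cells.

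Of the 7 genes with a promoter sequence here, a site overlapped that of 3, Ccr9, Ccr1 and Cx3cr1, and these are shown. The overlap places counted windows at the start of the gene. The Ccr9 and Cx3cr1 sites were above input in neither cell type, and the Ccr1 site was above it in cDCs alone. That result for Ccr1 was lost with other library sizes, as described below. The sequences are from RefSeq (GRCm38.p6, the coordinates of mm10) and run 5′ to 3′ on the strand of the gene, from 250 bases before the start to 30 bases after it. For Ccr9 (chr9:123766961-123767240, plus strand) capitals mark the 40 bases that lie in the site, and for Cx3cr1 (chr9:120068267-120068546, minus strand) the 94 bases that lie in the site. All 280 bases shown for Ccr1 (chr9:123968663-123968942, minus strand) lie in its site, so capitals there mark the only match to GAGGAA.
Ccr9: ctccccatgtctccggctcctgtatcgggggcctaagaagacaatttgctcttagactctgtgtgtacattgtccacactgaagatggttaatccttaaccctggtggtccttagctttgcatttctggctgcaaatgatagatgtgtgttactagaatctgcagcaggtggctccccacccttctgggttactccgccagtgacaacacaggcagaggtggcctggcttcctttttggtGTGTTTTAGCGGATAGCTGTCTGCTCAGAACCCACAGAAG
Ccr1: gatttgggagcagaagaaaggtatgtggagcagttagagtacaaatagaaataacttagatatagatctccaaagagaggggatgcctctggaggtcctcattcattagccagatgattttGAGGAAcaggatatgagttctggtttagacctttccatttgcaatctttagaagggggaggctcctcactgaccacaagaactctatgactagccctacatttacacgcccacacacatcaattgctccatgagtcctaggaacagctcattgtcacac
Cx3cr1: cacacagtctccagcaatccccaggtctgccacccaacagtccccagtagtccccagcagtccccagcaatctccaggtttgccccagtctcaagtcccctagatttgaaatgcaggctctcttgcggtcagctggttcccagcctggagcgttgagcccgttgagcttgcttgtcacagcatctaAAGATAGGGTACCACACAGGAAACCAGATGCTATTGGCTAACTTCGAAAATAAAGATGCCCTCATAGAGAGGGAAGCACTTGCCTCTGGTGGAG

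Promoter sequences of 300 bases were searched on both strands for GAGGAA, which reads TTCCTC on the other strand, and for the longer word GAGGAAGT, which reads ACTTCCTC there and contains it. Of 10 listed member promoters, from 7 genes, 3 held GAGGAA: that of Ccr1, 129 bases before the start, that of Ccr3, 181 bases before it, and that of Ccr6 at its upstream start, 218 bases before it. The longer word was in 0 of the 10. Among all 32851 promoter sequences 28.3% held GAGGAA and 3.20% held GAGGAAGT. The Ccr9 and Cx3cr1 promoters held neither word in this window.

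Counts summed over windows were between 6896416 and 11388554 per PU.1 library and 2776490 in the input. A read may have been counted in several windows, so these totals are not sequencing depths. Replicates differed by a mean chi-square per window of 1.41 in cDCs and 3.15 in pDCs (about 1 would be counting error), and pDC replicate 2 had 18.0% of its counts in a few repeat windows against 9.15% to 10.5% in the other PU.1 libraries. PU.1 signal is not RNA, so the labels could not be checked against expression. As loci, 5 of 6 pDC markers were higher in pDCs and 4 of 6 cDC markers higher in cDCs. Of 4 B cell markers 2 were higher in pDCs, as were 2 of 4 macrophage and neutrophil markers, and 0 of either list were higher in cDCs. Among all loci, 10.4% were higher in pDCs and 9.53% in cDCs. Summed over each list, PU.1 signal at the B cell markers was 224 to 238 CPM in the cDC libraries and 288 to 304 CPM in those of pDCs, and at the macrophage and neutrophil markers 183 to 196 and 170 to 208 CPM, with 0 of these 8 markers at 0 in any PU.1 library. Only windows that passed a count filter were summed, which makes a value of 0 unlikely. The part of such cells in the results below was not tested.

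PU.1 signal differed between the cell types at single sites of 4 genes, Ccr6, Ccr7, Ccr9 and Cx3cr1, while none of the 8 loci differed as a whole. By edgeR's quasi-likelihood test with Benjamini-Hochberg adjustment over all sites, 5 of the 57 sites (8.77%) were higher in pDCs and 2 (3.51%) in cDCs. Over all sites of the genome the shares were 8.46% for pDCs and 6.00% for cDCs. The share called in either direction, 12.3% of the 57 and 14.5% of all sites, was near the background. At an unadjusted p below 0.05, 8 sites leaned to pDCs and 7 to cDCs. The share of all sites at that threshold was not counted, so these numbers have no background beside them. Summit values, taken at the window with the highest mean CPM of a site, were above both cDC libraries in both pDC libraries at 19 sites (33.3%, against 29.0% of all sites). They were below them at 14 (24.6%, against 28.4%). The number of calls rested on single libraries. Fewer of the 57 sites were called without cDC replicate 1, cDC replicate 2 or pDC replicate 1, and more without pDC replicate 2. Over all sites of the genome the number called moved in the same directions. By the DESeq2 Wald test 1 site was called, that at the start of Ccr9. Site values below are CPM at the summit, counts scaled to TMM-adjusted library sizes. Locus values are CPM of the counts summed over a locus, scaled to the TMM-adjusted totals of all locus sums. Site and locus CPM are therefore on different scales. Log2 folds are pDC minus cDC with the standard error (SE) of the test, and n = 2 libraries per cell type.

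**Figure D1:**
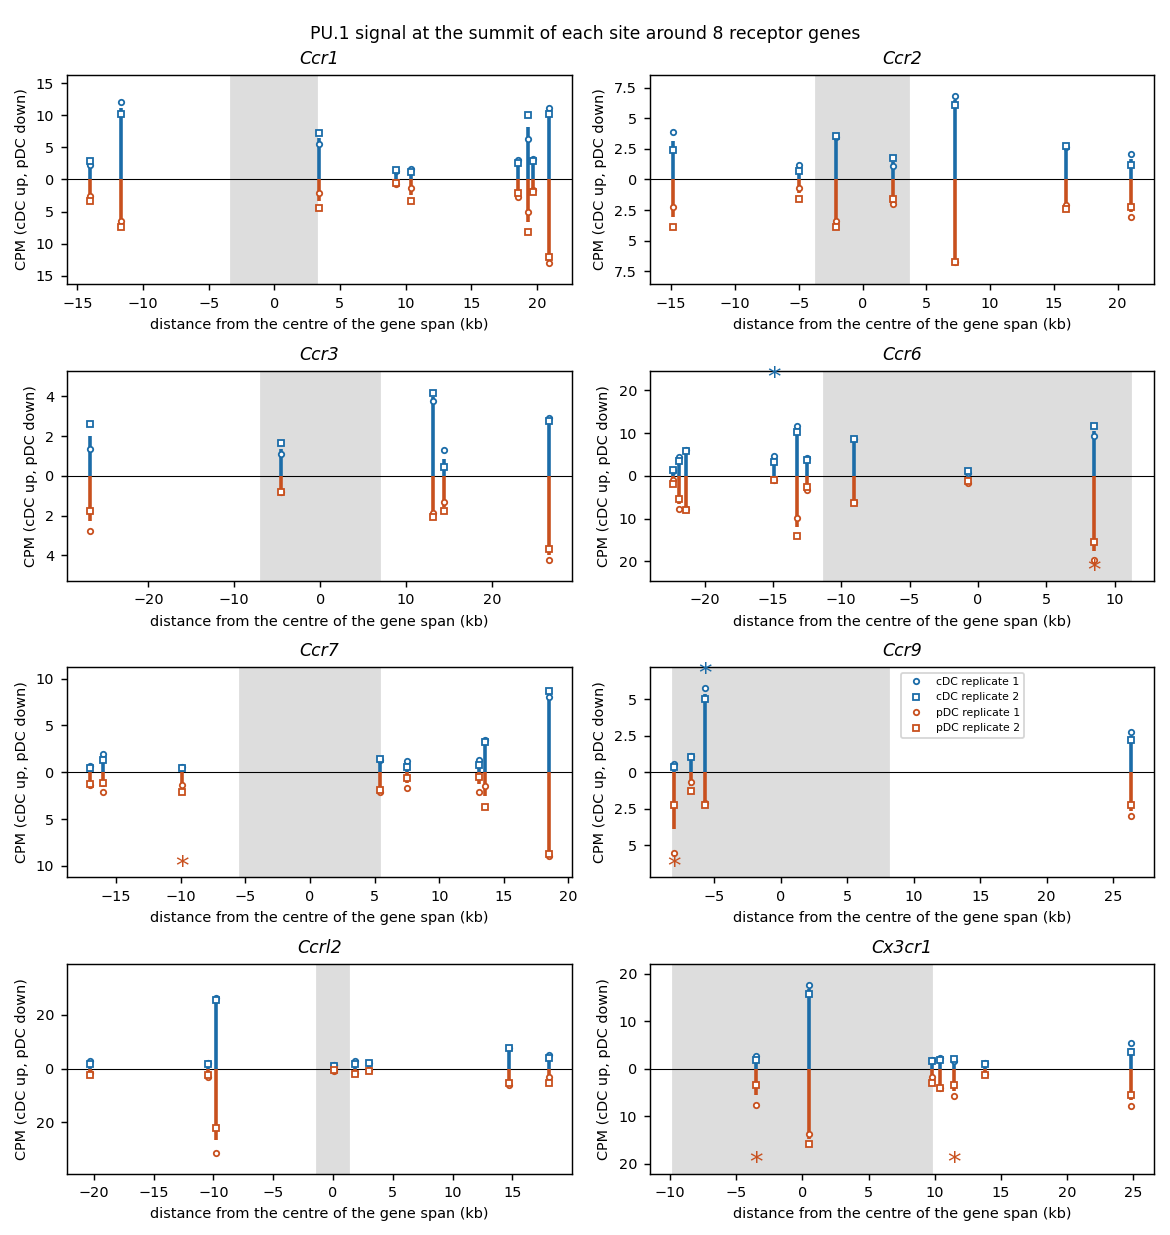
CPM at the summit of each site, cDC upward and pDC downward from 0, against the distance from the centre of the gene span (kb, in chromosome orientation), with 1 panel per gene. Bars are means, points are the 2 libraries per cell type, grey is the gene span, and asterisks mark the 7 sites that differed, drawn on the side of the higher cell type. Each panel has its own CPM scale. The asterisks fall on Ccr6, Ccr7, Ccr9 and Cx3cr1, and the tallest bars, at Ccrl2, carry none.

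Ccr9 had the largest fold of all 57 sites, at the start of the gene. The site (chromosome 9, 123767201 to 123767360) lies across the end of the gene span, with its summit 94 bp after the start. Its values were 0.549 and 0.346 CPM in cDC replicates 1 and 2, from 6 and 4 counts, against 5.54 and 2.25 CPM in pDC replicates 1 and 2, from 42 and 14 counts. Both pDC libraries were above both cDC libraries, and pDC replicate 1 was the higher of them. The log2 fold was 3.12 ± 0.53, 8.71-fold higher in pDCs (edgeR's adjusted p = 0.000448). The call was lost without pDC replicate 1 (log2 fold 2.31, edgeR's adjusted p = 0.0666). The input had 3 counts in the same window, and neither cell type passed the test against input at this site (edgeR's adjusted p = 0.115 for pDCs and 0.387 for cDCs at the summit, and 0.0129 for pDCs without pDC replicate 2).

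A further Ccr9 site moved the other way. It lies inside the gene span (chromosome 9, 123769501 to 123769760), with its summit 2444 bp after the start. There the cDC replicates had 5.76 and 5.01 CPM and the pDC replicates 2.11 and 2.25 CPM, from 63, 58, 16 and 14 counts, with 2 input counts. The groups did not overlap, and the log2 fold was -1.30 ± 0.34 (edgeR's adjusted p = 0.0345). This call was lost without cDC replicate 1 (-1.20), without cDC replicate 2 (-1.40) and without pDC replicate 1 (-1.25). In pDCs some other window of the site passed the test against input, but the summit window did not (edgeR's adjusted p = 0.214).

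The balance of these Ccr9 sites within a library does not depend on scaling between libraries. The sites were paired after their opposite calls were seen, so a difference in their ratio follows from that choice. The ratios describe the sites and are not a further test. Counts at the summit of the site at the start, divided by those at the summit of the site inside the span, gave ratios of 0.0952 and 0.0690 in cDC replicates 1 and 2. The pDC replicates 1 and 2 had ratios of 2.63 and 1. As a share of all tested signal in the locus, the site at the start held 4.23% in cDCs and 37.4% in pDCs, and the site inside the span 64.2% and 32.5%. The summed Ccr9 locus had 33.0 and 27.8 CPM in cDCs, 34.9 and 25.0 CPM in pDCs, groups that overlapped, and a log2 fold of -0.02 ± 0.22 (edgeR's adjusted p = 0.973). The Ccr9 locus was called higher in cDCs with 50 kb flanks (-0.49, edgeR's adjusted p = 0.0211) and with windows of a mean of at least 30 counts (-1.18, edgeR's adjusted p = 0.0115). That filter leaves only windows of the site inside the span, so its call repeats the call of that site. Both other Ccr9 sites were uncalled, at log2 folds of -0.17 ± 0.56 and 0.10 ± 0.38.

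**Figure D2:**
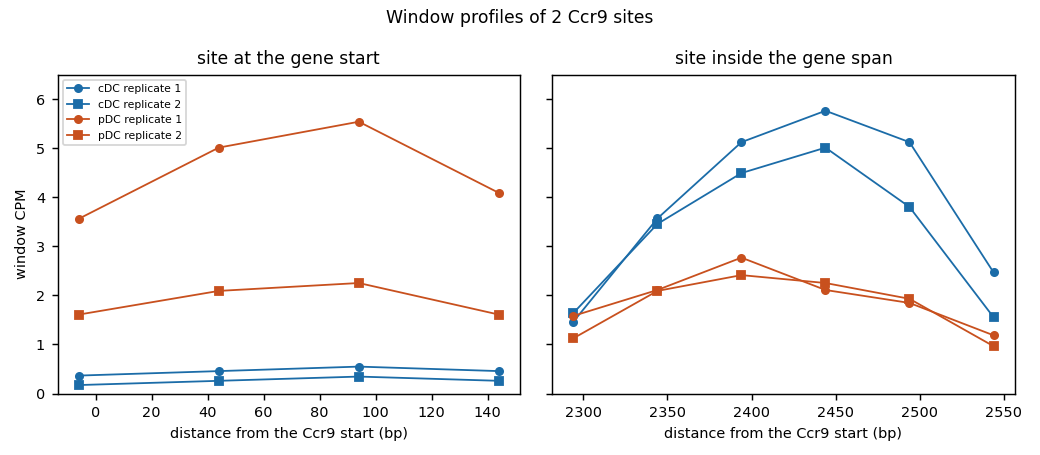
CPM of each 10 bp window against distance from the Ccr9 start (bp), 1 line per library, for the site at the gene start and the site inside the gene span. At the start the pDC lines peak at 5.54 and 2.25 CPM above the cDC lines, and inside the span the cDC lines peak at 5.76 and 5.01 CPM above the pDC lines.

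Ccr6, the CCL20 receptor gene, also held called sites in opposite directions. Upstream of the gene (chromosome 17, 8232251 to 8232460), 3.69 kb outside the span, a site had 4.66 and 3.20 CPM in the cDC replicates and 1.05 and 0.965 CPM in the pDC replicates. The counts behind them were 51, 37, 8 and 6, with 1 in the input. The groups were well apart, with a log2 fold of -1.94 ± 0.43, the lowest of the 57 sites (edgeR's adjusted p = 0.0102). This site was above input in cDCs and not in pDCs. With repeat windows left out of the library sizes it was above input in neither (edgeR's adjusted p = 0.520 for cDCs at the summit). Without cDC replicate 1 its call was lost (-1.65, edgeR's adjusted p = 0.258).

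Inside the Ccr6 span (chromosome 17, 8255651 to 8255960) a strong site was higher in pDCs. Its values were 9.33 and 11.7 CPM in the cDC replicates and 19.6 and 15.4 CPM in the pDC replicates, a log2 fold of 0.74 ± 0.23 (edgeR's adjusted p = 0.0273). The pDC values were higher throughout the 7 windows of this site, from 0.54 to 1.27 on the log2 scale. The call was lost without cDC replicate 1 (0.59), without cDC replicate 2 (0.91) and with library sizes not adjusted by TMM (0.62, edgeR's adjusted p = 0.0748). Summit counts here, divided by those of the upstream site, gave ratios of 2 and 3.65 in cDC replicates 1 and 2. In pDC replicates 1 and 2 they were 18.6 and 16. This pair was also chosen after its opposite calls were seen, so the ratios are no further test.

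The site inside the span had the highest summit of the Ccr6 sites, and the other 7 sites were not called. The strongest of those lay 1.99 kb outside the span (8233901 to 8234210), with 11.7, 10.3, 9.76 and 14.0 CPM in cDC replicates 1 and 2 and pDC replicates 1 and 2, a log2 fold of 0.10 ± 0.24. The one nearest to a listed start, at -1288 bp from it, had a log2 fold of -0.39 ± 0.34 (edgeR's adjusted p = 0.99997), with 4.12 and 3.63 CPM against 3.30 and 2.57 CPM. The whole Ccr6 locus had 179 and 175 CPM in cDCs and 191 and 208 CPM in pDCs, and its log2 fold of 0.17 ± 0.11 did not pass (edgeR's adjusted p = 0.287).

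Cx3cr1, whose product marks monocytes and macrophages and some dendritic cells, held 2 called sites, both higher in pDCs. One lies 1.66 kb outside the span, upstream of the start (chromosome 9, 120069801 to 120070060). The cDC replicates had 1.55 and 2.07 CPM and the pDC replicates 5.80 and 3.54 CPM, from 17, 24, 44 and 22 counts with 2 in the input. The log2 fold was 1.37 ± 0.37 (edgeR's adjusted p = 0.0308), the groups did not overlap, and the site was above input in pDCs and not in cDCs. With repeat windows left out of the library sizes it was above input in neither (edgeR's adjusted p = 0.696 for pDCs at the summit). The other lies inside the span, 13341 bp after the start (120054851 to 120055110), with 2.65 and 1.81 CPM against 7.65 and 3.54 CPM, a log2 fold of 1.35 ± 0.36 (edgeR's adjusted p = 0.0399). Here pDC replicate 1 stood far above pDC replicate 2.

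Both Cx3cr1 calls depended on 3 of the 4 libraries. The upstream site lay at 1.17 without cDC replicate 1, at 1.59 without cDC replicate 2 and at 0.95 without pDC replicate 1, with no call. The site inside the span lay at 1.63, 1.09 and 0.67 in the same order, again with no call. It also lost its call with library sizes not adjusted by TMM (1.23, edgeR's adjusted p = 0.0687) and with counts summed over the site (1.16, edgeR's adjusted p = 0.0625). Between them sits the strongest Cx3cr1 site (120058701 to 120059160), with 17.7 and 15.7 CPM in cDCs and 13.8 and 15.9 CPM in pDCs. The groups overlapped, and its log2 fold was -0.17 ± 0.23. It held 59.8% of the tested signal of the locus in cDCs and 43.8% in pDCs. At the start itself, the site in the promoter sequence shown above had 1.74 and 1.55 CPM against 1.85 and 3.06 CPM, a log2 fold of 0.55 ± 0.43 (edgeR's adjusted p = 0.929). Of the 7 Cx3cr1 sites, 6 had a positive log2 fold and 1 a negative one, beside 48.4% of all sites of the genome with a negative one.

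The Cx3cr1 locus as a whole had 131 and 108 CPM in cDCs and 151 and 149 CPM in pDCs. Its log2 fold of 0.33 ± 0.13 did not pass (edgeR's adjusted p = 0.0819). It was called without pDC replicate 1 (0.32) and without pDC replicate 2 (0.32), settings under which more of all loci were called. Of its 41 tested windows, 9 also lie in the locus of the neighbouring receptor gene Ccr8.

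Ccr7, the lymph node homing receptor, had 1 called site of 8, and it was weak. It lies 4.44 kb outside the span (chromosome 11, 99139751 to 99139860), with 0.549 and 0.432 CPM in cDCs and 1.32 and 2.09 CPM in pDCs. The counts were 6, 5, 10 and 13, beside 3 in the input, and the site was above input in neither cell type. The log2 fold was 1.75 ± 0.58 (edgeR's adjusted p = 0.0278), and leaving out any of the 4 libraries ended the call, at folds between 1.41 and 2.07. By far the strongest Ccr7 site, 13.0 kb outside the span (99167951 to 99168310), had 8.05 and 8.64 CPM in cDCs and 8.97 and 8.69 CPM in pDCs, a log2 fold of 0.08 ± 0.24 that did not pass. It held 56.5% of the signal of the locus in cDCs and 53.2% in pDCs. The site across the end of the span (99155051 to 99155160) had 1.28 and 1.38 CPM against 2.11 and 1.93 CPM, a log2 fold of 0.60 ± 0.45. The locus lay at 0.11 ± 0.16 (edgeR's adjusted p = 0.687), with 56.6 and 58.2 CPM in cDCs and 59.0 and 64.8 CPM in pDCs.

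**Figure D3:**
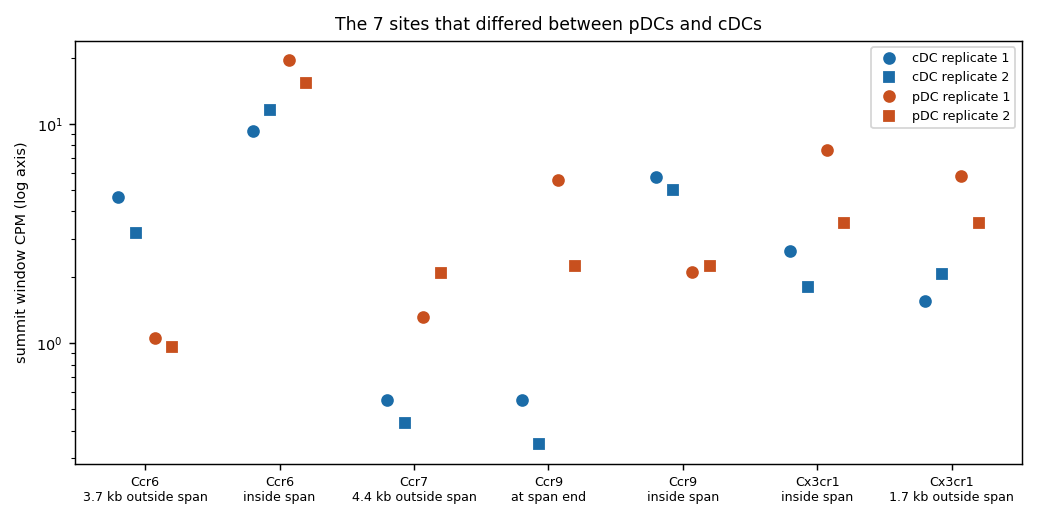
Summit CPM on a log axis at the 7 called sites, 1 point per library (circles replicate 1, squares replicate 2, blue cDC, orange pDC). At each of the 7 sites the cell types do not overlap, and the lowest point is the cDC replicate 2 value of the Ccr9 site at the gene start, 0.346 CPM.

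Ccr1, a receptor for CCL3 and CCL5, had no called site among 9. A negative log2 fold was seen at 6 of them, beside 48.4% of all sites of the genome. The site over its promoter (chromosome 9, 123968651 to 123968960), which holds the GAGGAA word shown in capitals above, had 5.58 and 7.26 CPM in cDCs and 2.11 and 4.50 CPM in pDCs. Both cDC values were above both pDC values, but the log2 fold of -0.99 ± 0.33 did not pass over all sites (edgeR's adjusted p = 0.103). Without pDC replicate 2 the site was called (log2 fold -1.60), in a setting under which more of all sites were called. The site of smallest p lay 8.37 kb outside the span (123953601 to 123953910), with 12.0 and 10.1 CPM against 6.46 and 7.40 CPM, a log2 fold of -0.68 ± 0.25 (edgeR's adjusted p = 0.0641).

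The strongest Ccr1 site, 17.6 kb outside the span (123986151 to 123986510), lies in the span of the related gene Ccr1l1. It leaned the other way, with 11.1 and 10.1 CPM in cDCs and 13.1 and 12.1 CPM in pDCs and a log2 fold of 0.25 ± 0.23 (edgeR's adjusted p = 0.952). The Ccr1 locus had 164 and 179 CPM in cDCs and 124 and 149 CPM in pDCs. That log2 fold of -0.33 ± 0.12 did not pass (edgeR's adjusted p = 0.0734), although the groups did not overlap. Flanks of 10 kb, which leave out this site and 4 others, gave -0.81 (edgeR's adjusted p = 0.00786). Without pDC replicate 2 the locus with 20 kb flanks was called (-0.47), in a setting under which more of all loci were called.

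Ccr2, the CCL2 receptor that monocytes use to leave the bone marrow, had no called site among 7. Their log2 folds ran from -0.27 to 0.69, and the smallest edgeR's adjusted p was 0.378. The strongest site lay 3.67 kb outside the span (124112651 to 124112960), with 6.86 and 6.05 CPM in cDCs and 6.73 and 6.76 CPM in pDCs, a log2 fold of 0.06 ± 0.26. Inside the span the site nearest to the listed start (124103301 to 124103560) had 3.48 and 3.54 CPM against 3.43 and 3.86 CPM, a log2 fold of 0.05 ± 0.33. The groups overlapped at both sites, and the locus lay at -0.02 ± 0.15, with 71.4 and 66.5 CPM in cDCs and 62.7 and 73.5 CPM in pDCs.

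Ccr3, the eotaxin receptor known from eosinophils, had 5 sites, none called. Over the whole locus the cDC replicates had 29.6 and 33.4 CPM and the pDC replicates 30.6 and 29.7 CPM, groups that overlapped (log2 fold -0.06 ± 0.20). The strongest of its sites, 19.7 kb outside the span (124051251 to 124051460), had 2.93 and 2.76 CPM in cDCs and 4.22 and 3.70 CPM in pDCs. The next, 6.21 kb outside it (124037801 to 124038010), had 3.75 and 4.15 CPM against 1.85 and 2.09 CPM. The log2 folds of these sites were 0.48 ± 0.33 and -1.01 ± 0.37, with edgeR's adjusted p of 0.340 and 0.189, so neither was called although the groups did not overlap at either. The site nearest to the listed start was a single window with 12, 19, 6 and 5 counts in cDC replicates 1 and 2 and pDC replicates 1 and 2, beside 8 in the input, the highest input count of the 57 summits.

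Ccrl2 held the strongest of the 57 sites, above input in both cell types. It lies 8.43 kb outside the span, downstream of the gene (chromosome 9, 111046201 to 111046610), with 26.2 and 25.7 CPM in cDCs and 31.3 and 22.0 CPM in pDCs. The pDC values lay on either side of the cDC values, and the log2 fold was 0.04 ± 0.23 (edgeR's adjusted p = 0.99997). By mean CPM it stood at percentile 99.6 of all sites of the genome. The site nearest to a listed Ccrl2 start, at -537 bp from it (111057951 to 111058160), had 2.84 and 1.64 CPM against 1.45 and 2.09 CPM, a log2 fold of -0.35 ± 0.44. None of the 8 Ccrl2 sites was called, with folds from -1.31 to 0.62 and a smallest edgeR's adjusted p of 0.130. The Ccrl2 locus, at 190 and 168 CPM in cDCs and 168 and 165 CPM in pDCs, had a log2 fold of -0.10 ± 0.11.

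**Figure D4:**
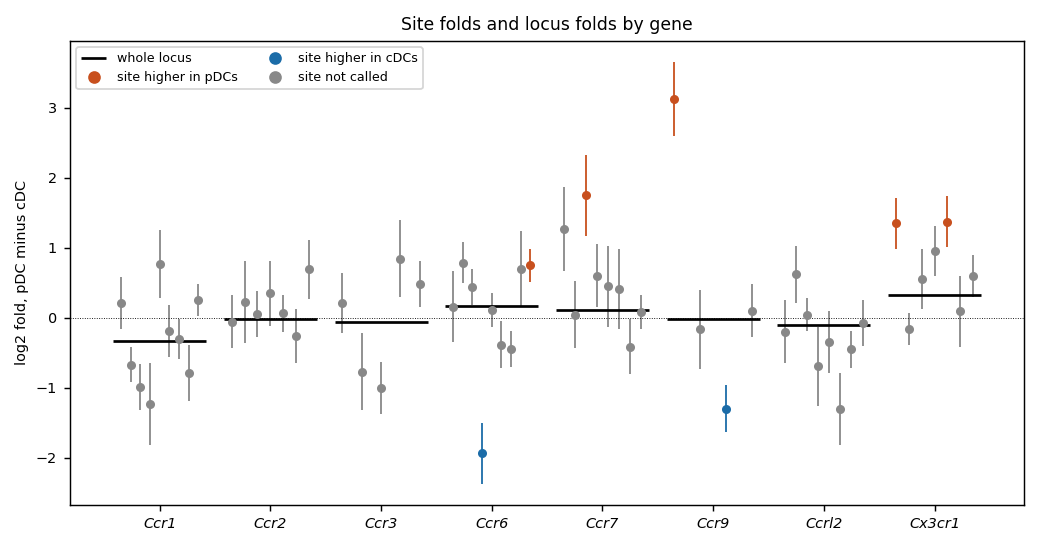
Log2 fold at the summit, pDC minus cDC, of each of the 57 sites by gene, with error bars of 1 SE (n = 2 libraries per cell type); black lines are the fold of the whole locus. Called sites of Ccr9 and Ccr6 lie on both sides of 0, from 3.12 to -1.30 and from 0.74 to -1.94, while their locus lines sit at -0.02 and 0.17.

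Ranked by the mean CPM of their strongest summit window, the genes ran Ccrl2, Cx3cr1, Ccr6, Ccr1, Ccr7, Ccr2, Ccr9 and Ccr3. The library values overlapped between the neighbours Cx3cr1 and Ccr6, Ccr6 and Ccr1, and Ccr9 and Ccr3, and did not overlap between the other neighbours in this order. The means ran from 26.3 CPM at Ccrl2 to 3.40 CPM at Ccr3.

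The 57 sites resembled the rest of the genome in shape. Their median width was 210 bp, as for all sites, with a range of 10 to 460 bp. Their median summit level was 2.57 CPM against 2.08 CPM for all sites, and 7 were in the top 10% by level. Of the 41 member sites with 4 or more windows, 27 had the same summit window in both cell types, 12 had summits 50 bp apart and 2 more than that. Summits at most 50 bp apart thus made up 95.1% of these, and 96.3% of all such sites. Most sites, 42, lay outside the gene spans, 11 inside and 4 across an end. The 7 called sites were spread over these places, 3 outside, 3 inside and 1 across an end.

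Signal over the input could be judged only loosely. The input had between 0 and 8 counts at the 57 summits, and a mean of 2.14 per window outside the repeat windows. With the totals over windows as library sizes, 31 sites (54.4%) were at least 2-fold above input in cDCs and 30 (52.6%) in pDCs (edgeR's adjusted p below 0.05), against 45.7% and 41.5% of all sites. Both cell types passed at 26 sites, cDCs alone at 5 (11.6% of all sites), pDCs alone at 4 (7.44% of all sites), and neither at 22. These counts rest on the 74.6% of input counts that lie in repeat windows: with those left out of the library sizes, 2 sites passed in each cell type. They were the strongest sites of Ccrl2 and Cx3cr1. Every other site named here as above input, in either or both cell types, was not above it in that setting.

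As whole loci none of the 8 genes was called, with a median log2 fold of -0.02 against 0.01 for all 16240 loci. At an unadjusted p below 0.05 in edgeR's test there were 2, Ccr1 (0.0171) and Cx3cr1 (0.0202). The share of all loci at that threshold was not counted. By the DESeq2 Wald test 0 were called. Of all loci 19.9% were called, 10.4% higher in pDCs and 9.53% in cDCs. Ccr1 had the largest absolute log2 fold of the 8. The genes whose 4 library values of locus log2 CPM were closest to it were Soat1, Atp8b1 and Gpr141, at Euclidean distances of 0.0778, 0.0923 and 0.102.

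**Figure D5:**
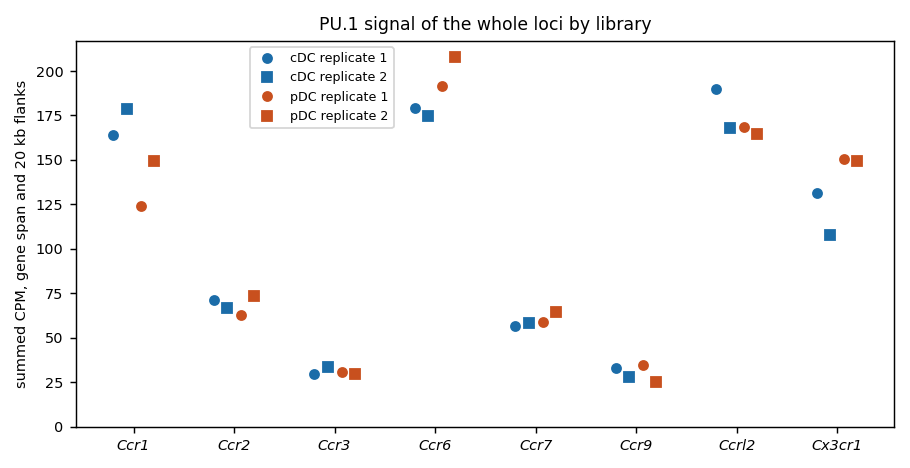
CPM of the summed counts of each whole locus, the gene span with 20 kb flanks, from 0, with 1 point per library (circles replicate 1, squares replicate 2). Points of the cell types are apart at Ccr1, Ccr6, Ccr7 and Cx3cr1, and Ccr1 is the only one of these with the cDC points on top. At Ccr7 the nearest points are 58.2 CPM in cDCs and 59.0 CPM in pDCs. None of these loci was called, and the share of all loci with points apart was not counted.

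Ligands of these receptors or of their relatives were compared over the same kind of locus. Of 19 genes for chemokine ligands and chemerin, 14 had tested windows, of which 5 were higher in cDCs, 3 higher in pDCs and 6 not called, with a median log2 fold of -0.17. Over all loci 9.53% were higher in cDCs and 10.4% in pDCs. These calls are not separate signals: all 9 windows of Ccl7 also belong to Ccl2 (both higher in cDCs), Ccl17 and Cx3cl1 (both higher in cDCs) share 4 windows, and Ccl3 and Ccl4 (both higher in pDCs) share 43. Ccl17, a CCR4 ligand made by dendritic cells, had 219 and 185 CPM in cDCs and 112 and 113 CPM in pDCs (log2 fold -0.84 ± 0.12, edgeR's adjusted p = 0.000317). Ccl22, a further CCR4 ligand, had 16.5 and 13.5 CPM against 5.35 and 5.53 CPM (-1.46 ± 0.32, edgeR's adjusted p = 0.00532), a call lost without cDC replicate 1 (-1.31). The loci higher in pDCs were Rarres2, the gene of chemerin (0.95 ± 0.31, edgeR's adjusted p = 0.0393), and Ccl3 and Ccl4, ligands of inflammatory receptors. Ccl3 had 69.7 and 69.1 CPM in cDCs and 146 and 112 CPM in pDCs (0.90 ± 0.14, edgeR's adjusted p = 0.000742), and all of its windows also belong to Ccl4 (0.88 ± 0.14).

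Of 7 other CC receptors and atypical receptors, 4 had tested windows and 1 was called. That was Ackr4, a scavenger of homing chemokines, with 4.19 and 3.73 CPM in cDCs and 17.3 and 16.2 CPM in pDCs over 5 windows (log2 fold 2.08 ± 0.33, edgeR's adjusted p = 0.000650). Among 32 genes of chemokine receptor signalling, 8 were higher in cDCs, 3 higher in pDCs and 21 not called, with a median log2 fold of -0.07, beside the same shares of 9.53% and 10.4% over all loci. The regulatory subunit genes of PI3K gamma, Pik3r6 (-0.71 ± 0.11, edgeR's adjusted p = 0.000708) and Pik3r5 (-0.52 ± 0.09, edgeR's adjusted p = 0.00147), were higher in cDCs and share 56 windows. Gnb1, a G protein beta subunit gene, lay at -0.53 ± 0.11 (edgeR's adjusted p = 0.00294). Without cDC replicate 1 the calls of Pik3r5 (-0.51) and Gnb1 (-0.50) were lost. Rasgrp2, an activator of the integrin regulator Rap1, was higher in pDCs, with 19.2 and 26.5 CPM against 63.3 and 44.1 CPM (1.23 ± 0.22, edgeR's adjusted p = 0.00165).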

How the data were processed

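PU.1 ChIP-seq counts came from 2 cDC, 2 pDC and 1 input library. The authors deposited read counts per 10 bp window, without normalization, per the file headers, and the 5 columns of the series table equalled the sample files. Subread 1.4.4 and mm10 are named in the submitters' processing notes; how windows were chosen, duplicates treated or reads extended is not given in the sources used here. Of 329996 windows, 286435 passed filterByExpr (minimum count 10); the smallest deposited window held 33 counts over the 5 libraries.

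Counts were scaled by TMM and tested with edgeR 4.0.16 (limma 3.58.1, R 4.3.3), pDC against cDC, without covariates, in a script tested on simulated data. Tested windows at most 100 bp apart were joined (GenomicRanges 1.54.1) into sites split at 5000 bp, with p-values combined by Simes' method and Benjamini-Hochberg adjustment over all 60527 sites; called means adjusted p below 0.05. Locus sums, with 20 kb flanks, were adjusted over 16240 loci. Gene spans and promoters were RefSeq's (GRCm38.p6); 7 of 8 genes matched a promoter. In the test against input, the spread of the single input library was taken to be that of the others. A site counted as above input when any of its windows passed. With 2 against 2 libraries an exact two-sided permutation test cannot go below 0.333, so none is given for single values.

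The members and lists were chosen with earlier results of these data known. Named were each called site, the strongest site and the site nearest to the start of each gene, up to 4 called genes per list by smallest p, and the 3 loci closest to the member locus of largest fold. The other sites named for Ccr1, Ccr3 and Ccr6, and the ratios between sites within a library, were chosen after their values were seen. Alternatives were library-size scaling, library sizes from repeat windows (at least 1000 input counts), other filters, DESeq2 1.42.0, a minimum fold of 1.5, other joins and flanks, a replicate block and leaving out each library.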

Additional observations from a re-analysis of the deposited data

How the results depend on the processing

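None of the 7 called sites and 9 named list loci changed direction in any alternative that tested them. The 7 called member sites (5 higher in pDCs, 2 in cDCs) became 2 (1 and 1) with library sizes from repeat windows. That setting moved the median log2 fold of all tested windows to -0.54. With a minimum fold of 1.5 there were 2 (1 and 1). A filter on a mean of at least 30 counts gave 4 (2 and 2); it left 3 of the 7 to test, and those 3 stayed called. There were 4 (3 and 1) in the gene span alone and 1 (1 and 0) by DESeq2, which called 3.11% of all sites. Library-size scaling gave 6 (3 and 3). Leaving out 1 library gave 1 to 12 sites, 1 to 7 higher in pDCs and 0 to 5 higher in cDCs, and 0 to 2 loci. The loci called with 1 library left out were Cx3cr1, without either pDC replicate, and Ccr1, without pDC replicate 2. Member loci called rose from 0 to 1 with library-size scaling (Ccr1), a mean of at least 30 counts (Ccr9), and flanks of 10 kb (Ccr1) and of 50 kb (Ccr9). Sites above input fell from 31 in cDCs, 30 in pDCs and 35 in either to 2, 2 and 2 with library sizes without repeat windows. That setting cut the library size of the input from 2776490 to 704301. With repeat-window library sizes the calls of the 9 named list loci ended, and 0.591% of all loci were called. A minimum fold of 1.5 ended 7 of them, leaving Ackr4 and Rasgrp2, and the gene span alone ended Ccl17 (-0.55) and Gnb1 (-0.42).

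Signs changed at uncalled sites and loci alone. Repeat-window library sizes gave -0.26 at Ccr1 123986151, -0.51 and -0.47 at Ccr2 124103301 and 124112651, -0.041 at Ccr3 124051251, -0.45 at Ccr7 99167951, -0.42 at Ccrl2 111046201, -0.060 at Cx3cr1 120068151, and -0.32, -0.39 and -0.13 at the Ccr6, Ccr7 and Cx3cr1 loci. Library-size scaling gave -0.077, -0.062, -0.045 and -0.080 at the same Ccr2, Ccr7 and Ccrl2 sites. Leaving out 1 library, the loci ranged from -0.15 to 0.093 for Ccr2, from -0.15 to 0.023 for Ccr3 and from -0.28 to 0.19 for Ccr9. The sites ranged from -0.036 to 0.14 and from -0.025 to 0.15 for Ccr2 124103301 and 124112651, and from -0.24 to 0.27 and from -0.69 to 0.087 for Ccrl2 111046201 and 111057951. Site sums gave -0.079 at Ccr2 124112651, the gene span alone 0.11 at the Ccr2 locus, flanks of 10 kb 0.0070 at the Ccr9 locus and flanks of 50 kb 0.048 at the Ccrl2 locus.

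Same-numbered libraries share only a number, and their deviations correlated at 0.0133 over windows; with the replicate block 9 sites (6 and 3) and 0 loci were called.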
